A study of Mus musculus with 2 samples.

Results

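The genes described here are Ly6a, which encodes Sca-1, Ly6e, Thy1, which encodes CD90, Klrg1, Ptprc, which encodes CD45, and Cd44. They were listed by name as surface genes used to sort or describe type 2 innate lymphoid cells (ILC2s), and all 6 of 6 were found among the 32285 genes of the deposited files. Lung ILC2s had been sorted from WT mice and from mice lacking Pac1 (Pac1-/-, labelled Pac1-KO), the phosphatase gene listed as Dusp2 in the files. Both genotypes were on the C57BL/6J background, mice of the study were 6 to 8 weeks old, and the labels name no treatment for these cells. Cells of 4 to 5 mice were pooled per genotype, about 13000 sorted cells were loaded, and 1 droplet library was made from each pool. The sort gate was Lineage-, CD90.2+, ST2+, Sca-1+ and live, so protein of Thy1 and Ly6a, and of Il1rl1 for ST2, was a condition of entry in both genotypes.

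Sca-1 and Ly6e belong to the Ly6 family, small disulphide-rich proteins that a glycosylphosphatidylinositol (GPI) anchor holds at the outer membrane, and interferons are known inducers of both genes. Thy1 is another GPI-anchored protein and a pan-ILC marker. KLRG1 is an inhibitory lectin-like receptor of mature ILC2s, CD45 is the receptor phosphatase of all leukocytes and CD44 is the hyaluronan receptor that marks activated and tissue lymphocytes.

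Transcripts were counted as unique molecular identifiers (UMIs), in which each captured molecule counts once near its 3′ end, so levels between genes do not scale with transcript length. Kept were barcodes that had 500 genes or more and no more than 10% mitochondrial UMIs, in number 8394 of 10866 WT and 7087 of 9495 Pac1-KO barcodes which held 54579034 and 58338886 UMIs. The median cell held 4186.5 UMIs in WT and 5577 in Pac1-KO, and the 2 libraries shared 29 barcodes, 15 of them among those kept. Dusp2 had 1419 UMIs in the WT library and 5 in the Pac1-KO library, as the labels require. The ILC2 markers Gata3, Il1rl1 and Il7r were detected in 88.8% to 94.8% of kept cells of either library. With 1 library per genotype there is no replicate, so no difference between genotypes was tested, and intervals (95%, exact) cover counting error only.

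Sequences of Ly6a and of Ly6c1 are shown because these neighbours on the minus strand of chromosome 15 had the higher levels in Pac1-KO cells and are close enough in sequence to share reads. In the GENCODE annotation of GRCm38, Ly6a lies at chr15:74994877-74998031 and Ly6c1 at chr15:75044018-75048830. Coding bases 76 to 345 of Ly6a and 76 to 336 of Ly6c1, counted from the start codon, are printed 5′ to 3′, with capitals at bases that differ between the aligned pair or have no partner in it.
Ly6a: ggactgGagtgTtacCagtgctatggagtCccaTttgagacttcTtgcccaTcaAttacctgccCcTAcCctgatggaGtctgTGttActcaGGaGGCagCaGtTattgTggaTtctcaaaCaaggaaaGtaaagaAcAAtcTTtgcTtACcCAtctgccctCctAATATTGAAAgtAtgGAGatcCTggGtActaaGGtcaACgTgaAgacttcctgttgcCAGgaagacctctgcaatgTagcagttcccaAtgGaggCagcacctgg
Ly6c1: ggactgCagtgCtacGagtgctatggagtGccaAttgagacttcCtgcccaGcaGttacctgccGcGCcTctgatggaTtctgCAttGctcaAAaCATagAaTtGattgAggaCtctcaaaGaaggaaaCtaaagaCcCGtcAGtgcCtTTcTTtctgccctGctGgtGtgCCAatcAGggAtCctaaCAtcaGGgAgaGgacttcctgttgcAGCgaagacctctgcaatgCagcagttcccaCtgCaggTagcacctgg
Over these stretches 76.6% of 261 aligned bases were identical. Over the whole coding sequences, of 405 and 396 bases, 83.8% of 396 aligned bases were, since both genes are nearly alike in the stretches left out, which code for the signal peptide and the signal for GPI attachment. Reads of such a library come from near the 3′ end of the transcript, and there the genes can be told apart. Of the 50-base words in the last 400 bases of Ly6a transcripts, 95.3% occurred in no other annotated gene, and the shared ones were in Ly6c2 and I830127L07Rik. For Ly6c1 this share was 71.3%, all other words being shared with Ly6c2. Ly6c2 itself had 2 UMIs in WT and 1 in Pac1-KO, and Ly6i, the closest relative of Ly6a with 86.4% identical coding bases, had 3 and 11. Reads that fit several of these genes may not have been counted, so Ly6c1 is the less certain of the pair.

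The other members are spread over the genome. Ly6e is at chr15:74955051-74959905 on the plus strand, Thy1 at chr9:44043384-44048579 (plus), Klrg1 at chr6:122270596-122282882 (minus), Ptprc at chr1:138062861-138175708 (minus) and Cd44 at chr2:102811141-102901665 (minus). All 6 are protein-coding genes. A noncoding gene overlaps Ptprc on its own strand (A130071D04Rik) and Cd44 on the opposite strand (Gm23731), and no annotated gene overlaps the other 4. RefSeq promoter sequences (GRCm38.p6, 250 bases before to 50 after the start) were at hand for 2 of the 6 members, Ptprc and Cd44. On either strand, neither held GAAA, any 2 bases and GAAA again, the core of the interferon-stimulated response element, nor TTC, any 3 bases and GAA, the core of the gamma-activated site. These letters occurred in 3.44% and 8.30% of 32851 promoters. The promoter of Slfn5, an interferon-inducible Schlafen gene used below to class cells, held 1 match to the former and none to the latter.

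Ly6a transcripts were more abundant in the Pac1-KO library, and those of Klrg1 and Cd44 less abundant. The paper reports that Sca-1, KLRG1 and Thy-1 protein of resting lung ILC2s did not change with loss of PAC1. The levels below are of transcripts only, and a change of surface protein is not read from them. The median gene was itself 0.19 higher on the log2 scale in Pac1-KO, so every log2 ratio below is given relative to the median of 12425 genes with at least 50 UMIs over both libraries, unless said otherwise. A gene at least 1.5-fold from that median gene is called past the fold, a rule of size and not a test.

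Ly6a, the Sca-1 gene, counted 5478 UMIs in WT and 12426 in Pac1-KO. Its level was 100.4 counts per 1000000 UMIs (CPM; interval 97.7 to 103) in WT and 213 CPM (209 to 217) in Pac1-KO, the relative log2 ratio being 0.90 (0.85 to 0.94). In order of abundance Ly6a stood at place 1335 among all genes in WT and at place 603 in Pac1-KO.

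Cd44 had a level of 501 CPM in WT and 314 CPM in Pac1-KO, a relative log2 ratio of -0.86 (-0.89 to -0.83). Klrg1 had 197 and 131 CPM and a ratio of -0.77 (-0.81 to -0.73). Both genes thus lay below the median gene in Pac1-KO by more than 1.5-fold, although Klrg1 missed that size narrowly when counted without the median correction, at -0.58 against a limit of 0.58.

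Ly6e was the most abundant member in both libraries, with 1070 CPM in WT and 1083 CPM in Pac1-KO. Its ratio was -0.17 (-0.19 to -0.15) relative to the median gene but 0.02 as counted, so its direction depends on that scaling. Ptprc had 943 and 847 CPM (ratio -0.34) and Thy1 165 and 153 CPM (ratio -0.30), both within the fold. The 2 transcripts of the sort gate next to Ly6a, Thy1 and Il1rl1 (1112 and 992 CPM, ratio -0.35), were therefore slightly lower in the library in which Ly6a was higher.

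In all, 3 of 6 members were past the fold, 1 higher and 2 lower in Pac1-KO, where 21.0% of all tested genes were past it, 8.20% higher and 12.8% lower. The count was 3 in each of 9 other ways of filtering and summing cells and 2 as counted, Klrg1 being the gene lost.

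**Figure D1:**
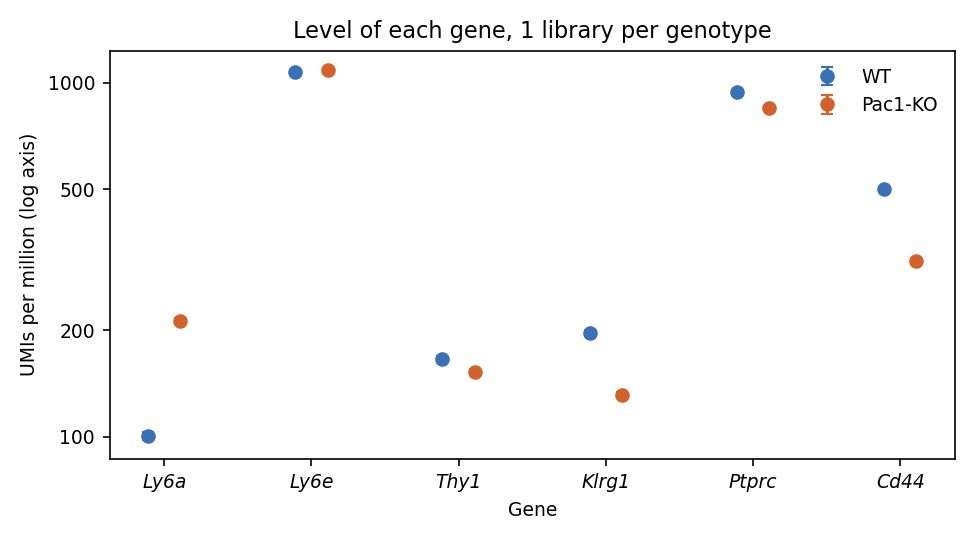
Level of the 6 genes in CPM on a log axis, with 1 point per library (WT blue, Pac1-KO orange) and exact Poisson intervals, which are mostly narrower than the points. Ly6a is higher in Pac1-KO (213 against 100.4), while Klrg1 and Cd44 are lower and Ly6e is nearly level.

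Some markers of other cells were also higher in the Pac1-KO library. The erythroid pair Hba-a1 and Hbb-bs had 61.3 CPM together in WT and 204 CPM in Pac1-KO. The 4 epithelial markers had 53.9 and 79 CPM, most of it Scgb1a1 (37.5 and 46.5 CPM), while Sftpc, the surfactant gene of alveolar type 2 cells, had 15 and 675 UMIs (0.27 and 11.6 CPM, relative log2 ratio 5.21). Summed levels of the 3 endothelial markers (41.8 and 38.6 CPM) and of the 4 stromal markers (2.09 and 2.25 CPM) were near level. The 5 T cell markers had 402 and 491 CPM together, of which Cd3d (-1.10), Cd3e (-1.02) and Trac (-1.59) were past the fold lower in Pac1-KO and Trbc2, at 261 and 386 CPM, was higher (0.38) but within the fold. The 4 NK cell and ILC1 markers had 0.70 and 0.99 CPM. In the same order the 4 B cell markers had 6.30 and 11.4 CPM, the 5 myeloid markers 2.42 and 7.15, with Csf1r and Itgam at 0 in WT, and the 4 mast cell and basophil markers 13.2 and 28.6. Cells with UMIs of at least 2 markers of a B, myeloid, epithelial, endothelial or stromal set numbered 100 in WT and 228 in Pac1-KO and held 2.12% and 6.42% of all Ly6a UMIs. Without these cells the relative Ly6a ratio was 0.90. The part of free RNA in the Ly6a level was not tested.

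The Ly6a difference was present in cells of every depth. Cells were split into 4 classes of like size at 3489, 4883 and 8323 UMIs, limits taken over both libraries. From the shallowest to the deepest class, Ly6a had 93.1, 117, 105 and 95.1 CPM in WT and 224, 209, 258 and 195 CPM in Pac1-KO. All 4 Pac1-KO values exceeded all 4 WT values, and the relative ratios were 1.11, 0.66, 1.10 and 0.84. Over the same classes Cd44 ranged from -0.83 to -1.05 and Klrg1 from -0.74 to -1.02.

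The share of cells in which a transcript was seen depends on depth, so each cell was also thinned at random to 1500 UMIs, and 760 WT and 523 Pac1-KO cells with fewer were left out. Ly6a was then detected in 12.7% (11.9 to 13.4) of 7634 WT cells and 26.3% (25.3 to 27.4) of 6564 Pac1-KO cells. Without thinning it was detected in 35.9% and 60.1%, although the sort had gated on Sca-1. Among thinned cells with at least 2 B cell markers, a type outside the gate, 0 of 10 in WT (upper limit 30.8%) and 2 of 23 in Pac1-KO (8.70%, interval 1.07 to 28.0) had a Ly6a UMI, with median depths of 4297.5 and 4652 UMIs before thinning. At full depth 1 of the 10 and 8 of the 23 (34.8%) had one, and Ly6a stood at 38.8 and 136 CPM in these cells.

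Klrg1 was detected in 24.9% of WT and 17.6% of Pac1-KO thinned cells, and Cd44 in 47.8% and 33.5%. Thy1 was detected in 19.9% and 19.0%, with overlapping intervals. Ly6e (77.0% and 77.6%) was near level, and Ptprc was seen in 73.3% and 70.3%. Before thinning, the Thy1 share was 49.0% in WT and 51.6% in Pac1-KO and the Ptprc share 93.4% and 94.2%, an order opposite to that of their CPM and of the thinned shares. In cells with B cell markers Ptprc, which B cells express, was detected in 6 of 10 and 12 of 23, while Klrg1, which they should lack, was detected in 0 of 10 and 1 of 23 and Thy1, which they should also lack, in 2 of 10 and 1 of 23. The WT share for Thy1 was thus as high as in the whole library. At full depth Klrg1 was in 3 of 10 and 5 of 23 of these cells, at 123 and 79.1 CPM, and Thy1 in 4 of 10 and 10 of 23, at 226 and 123 CPM. Low detection of either gene can therefore include free RNA or a second cell in the droplet, and their part was not tested.

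Among WT cells with a Ly6a UMI most had exactly 1, the shares being 10.9% of cells with 1 UMI, 1.49% with 2 and 0.249% with 3 or more. In Pac1-KO these shares were 20.2%, 4.60% and 1.57%. The variance of Ly6a counts over their mean was 1.22 in WT and 1.45 in Pac1-KO, against 1 for pure counting noise at equal levels. Thy1 had the lowest values among the members, 1.11 and 1.05. This measure also depends on the mean count, so no order of evenness between genes or libraries is read from it. Il5, for comparison, had 5.94 and 5.82.

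All 3 gate transcripts, Thy1, Il1rl1 and Ly6a, were seen together in 2.14% of thinned WT cells and 3.87% of thinned Pac1-KO cells, and none of them in 18.0% and 16.6%. Without thinning, 21.8% and 36.2% of cells had all 3 and 5.09% and 3.98% had none. At this depth, absence of a gate transcript therefore does not mark a cell as outside the gate.

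**Figure D2:**
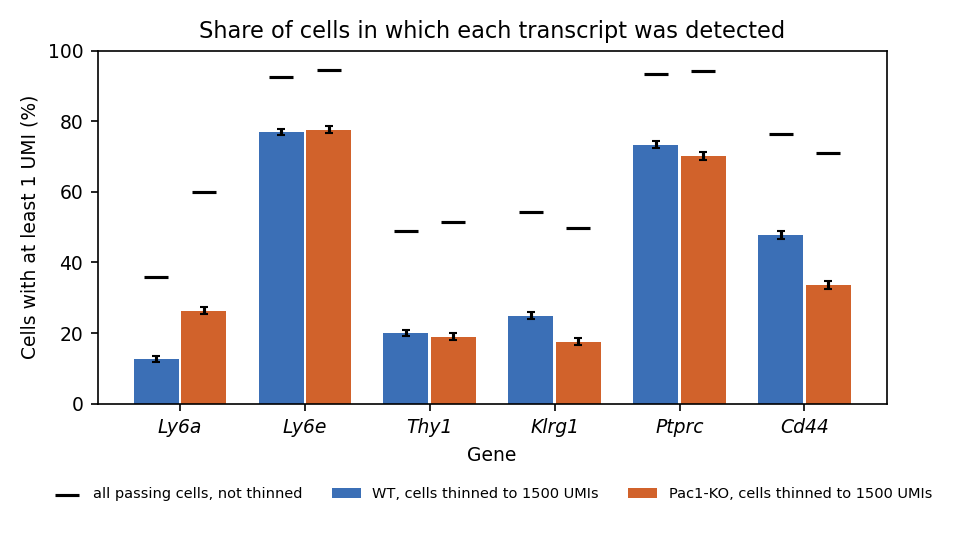
Percent of cells with at least 1 UMI of each gene in WT (blue) and Pac1-KO (orange); bars are cells thinned to 1500 UMIs with exact binomial intervals, and black dashes are all kept cells at full depth. Ly6a detection is 12.7% in WT and 26.3% in Pac1-KO after thinning, and every dash lies well above its bar.

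Ly6a was next set against the other Ly6 genes. Of 41 listed genes of the Ly6 and urokinase receptor family, 7 reached 50 UMIs, and of these 3 were higher in Pac1-KO by at least 1.5-fold and 2 lower, with a median ratio of 0.17, where 8.20% of all tested genes were higher and 12.8% lower. Without the members Ly6a and Ly6e the counts were 2 and 2 of 5. Ly6c1, a marker of some endothelial and lymphoid cells, had 169 UMIs in WT and 534 in Pac1-KO, a ratio of 1.38 (1.12 to 1.63). Ly6d, a marker of B lineage cells, had 52 and 129 UMIs (1.03, 0.55 to 1.52). The lower genes were Plaur, the urokinase receptor (2264 and 1673 UMIs, -0.72), and Pate2 (34 and 21 UMIs, -0.98). Ly6g5b had 188 and 257 UMIs (0.17). A total of 17 family members had no UMI in WT and 15 none in Pac1-KO.

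Ly6d and Ly6c1 came from different cells. Cells with at least 2 B cell markers, 10 in WT and 23 in Pac1-KO, held 96.2% and 89.1% of all Ly6d UMIs. Of the 8 WT and 29 Pac1-KO cells with a Ly6d UMI, 6 and 16 carried those markers. Ly6c1 was in 150 WT and 407 Pac1-KO cells, and cells with markers of any other type held 5.33% and 7.49% of its UMIs. Among cells without such markers, Ly6c1 stood at 3.01 CPM in WT and 9.08 CPM in Pac1-KO.

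Ly6c1 went with Ly6a within the Pac1-KO library. In thinned Pac1-KO cells with a Ly6a UMI it had 50 UMIs (19.3 CPM), and in those without, 53 UMIs (7.31 CPM), a ratio of 1.33 (0.74 to 1.92). In WT there were 8 and 24 UMIs (5.52 and 2.40 CPM), too few to separate the classes, the interval being -0.19 to 2.37. Single cells weigh on such counts, the most in 1 thinned Pac1-KO cell being 9 Ly6c1 UMIs. At full depth the 21 Pac1-KO cells with endothelial markers had 66.6 CPM of Ly6c1 and 325 CPM of Ly6a. They held 3.18% of all Ly6c1 UMIs of that library. The 17 such WT cells had 12.4 and 62.2 CPM. The part of these cells in the ratio was not tested. The random thinning also matters for so rare a transcript. Over 20 further thinnings the Pac1-KO ratio averaged 0.88 (range 0.26 to 1.24) and the WT ratio 1.30 (0.66 to 1.92), above 0 in 20 of 20 in each library. Here and below such thinnings redraw UMIs of the same cells and are not independent. They show the noise of thinning alone and leave the counting interval as it is. Ly6e was slightly higher in Ly6a-positive cells, by 0.11 in WT (0.03 to 0.18) and 0.13 in Pac1-KO (0.07 to 0.19).

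Within 500 kb of the Ly6a start 9 genes were tested. The 4 Ly6 genes among them had ratios of 0.90 (Ly6a), 1.38 (Ly6c1), 1.03 (Ly6d) and -0.17 (Ly6e). The 5 other genes had a median of 0.30, with 1 past the fold in each direction, where 8.20% of all tested genes were higher and 12.8% lower. Ly6e, whose start is 43.0 kb from that of Ly6a, was thus not higher in Pac1-KO relative to the median gene. As counted its ratio was 0.02. Ly6c1, 50.8 kb away on the other side, was higher.

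**Figure D3:**
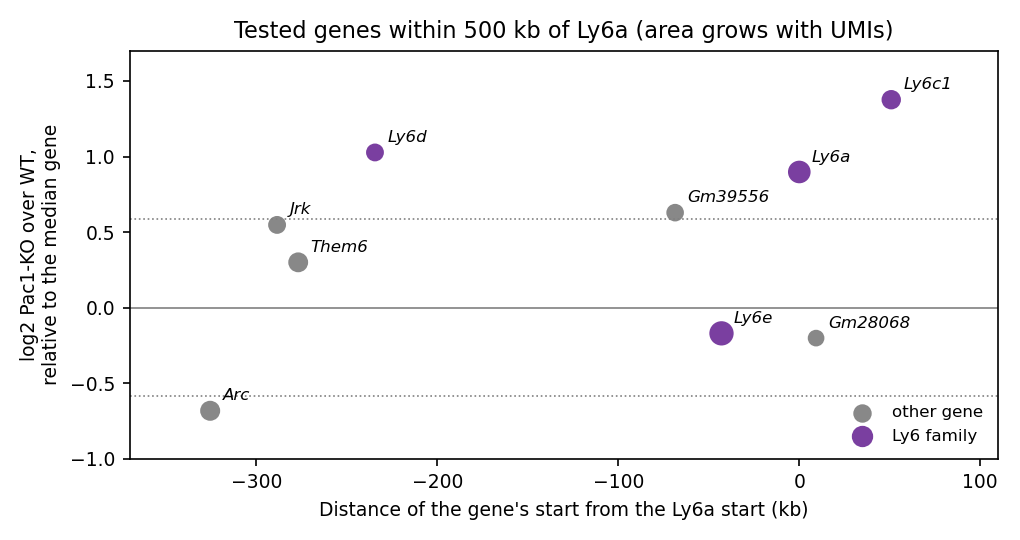
Log2 ratio of Pac1-KO over WT, relative to the median gene, for the 9 tested genes within 500 kb of Ly6a, against the distance of their starts from the Ly6a start in kb; purple points are Ly6 genes, grey points others, and dotted lines mark 1.5-fold. Ly6a (0.90) and Ly6c1 (1.38) lie above the upper dotted line and Ly6e (-0.17) lies just under 0.

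Cells were then classed by the type 2 cytokine genes. A thinned cell was called positive for Il5, Il13 or Slfn5 with at least 1 UMI. Il5 was detected in 32.5% of WT and 19.7% of Pac1-KO thinned cells, Il13 in 14.3% and 9.45%, and Slfn5 in 5.62% and 8.24%. Cells called negative include cells whose transcript was missed. Cells of 1 library are not replicates, so the ratios of positive over negative cells are descriptions with counting intervals, again relative to the median gene of that comparison.

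Cd44 was the member that most went with Il5. In WT it had 533 CPM in Il5-positive and 453 CPM in Il5-negative cells, a ratio of 0.41 (0.33 to 0.49), and in Pac1-KO 372 and 271 CPM, a ratio of 0.65 (0.52 to 0.77). Ptprc ratios were 0.15 and 0.25 and Klrg1 ratios 0.18 and 0.15, while Thy1 (0.02 and 0.14) and, in Pac1-KO, Klrg1 had intervals that held 0. Ly6e ratios were 0.08 in WT and -0.04 in Pac1-KO. Thinned to 1000 UMIs, Klrg1 in WT had a ratio of -0.01. As counted, without the median correction, Ly6e and Thy1 were lower in Il5-positive cells of both libraries, Ptprc in WT (-0.03) and Klrg1 in Pac1-KO (-0.04).

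Ly6a did not share this pattern. In WT it had 92.4 CPM in Il5-positive and 101 CPM in Il5-negative cells (0.04, -0.15 to 0.22). In Pac1-KO it had 170 and 250 CPM, a ratio of -0.37 (-0.54 to -0.20), lower in Il5-positive cells. Over 20 further thinnings the Pac1-KO ratio was below 0 in all 20, with a mean of -0.30 (-0.50 to -0.09), while the WT ratio had a mean of -0.06 and was above 0 in 6 of 20. The WT ratio was 0.10 when cells were thinned to 1000 UMIs, -0.23 at 3000 UMIs and -0.15 without thinning. Whether the 2 libraries differ in this was not tested. The number of members past the fold was 0 in WT, where 11.6% of 8512 genes were past it, and 1 in Pac1-KO (Cd44), where 13.6% of 7299 genes were. For scale, Gata3, the master factor of ILC2s, had ratios of 0.80 and 0.81 and Il1rl1 0.61 and 0.59.

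Read from the side of Ly6a, Il5 had 560 CPM in Ly6a-positive and 631 CPM in Ly6a-negative WT cells (-0.20) and 255 and 390 CPM in Pac1-KO (-0.68). Cd44 was lower in Ly6a-positive cells of both libraries, with ratios of -0.25 (-0.38 to -0.13) and -0.31 (-0.43 to -0.18). Over the 20 further thinnings these stayed below 0 in all 20 for both genes and both libraries.

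Cd44 also went with Il13 status. Cd44 had 556 CPM in Il13-positive and 466 CPM in Il13-negative WT cells (0.35, 0.25 to 0.46) and 385 and 281 CPM in Pac1-KO (0.59, 0.43 to 0.75). In Pac1-KO, Klrg1 (0.39, 0.13 to 0.63) and Ptprc (0.22, 0.12 to 0.32) also lay above the median gene, while in WT both had intervals that held 0. The 20 further thinnings gave Klrg1 means of 0.09 in WT (above 0 in 17 of 20) and 0.27 in Pac1-KO (20 of 20) and Ptprc means of 0.11 and 0.20 (20 of 20 in each), so no difference between the libraries is read from this. Thinned to 1000 UMIs, Klrg1 in Pac1-KO had a ratio of 0.00. Ly6a had 78.5 and 102 CPM in WT (-0.28, -0.55 to -0.01) and 217 and 236 CPM in Pac1-KO (0.02). The 20 further thinnings gave Ly6a means of -0.14 and -0.08 and were above 0 in 3 and 2 of 20. Read from the side of Ly6a, Il13 had a ratio of -0.52 (-0.73 to -0.31) in WT and 0.03 (-0.14 to 0.21) in Pac1-KO, with means of -0.27 in both libraries over the further thinnings, above 0 in 4 and 1 of 20. Most thinnings thus gave a negative ratio, but the range spanned 0 in each library and for each reading. No member was past the fold in WT, where 6.78% of 6403 genes were, and 1 (Cd44) was in Pac1-KO, where 14.0% of 5110 genes were. That Cd44 value lay just past the limit, and it was past it in 8 of the 20 further thinnings.

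When cells were split by both cytokines at once, Cd44 was lowest in cells with neither and highest in cells with both, in either library. Its level in WT was 444 CPM in cells with neither transcript, 517 with Il5 alone, 527 with Il13 alone and 584 with both. In Pac1-KO these levels were 266, 351, 336 and 451 CPM. Each Pac1-KO level lay below the WT level of its class, and in both libraries the interval of the cells with both cytokines lay above that of the cells with neither. Ly6a had 104, 97.4, 81.6 and 75.7 CPM in the same WT classes, where the interval of the last (58.3 to 96.6) overlapped that of the first, whose lower bound was 96.1. These levels come from 1 thinning without the median correction, and no order of the WT classes is read from them. In Pac1-KO, Ly6a had 252 CPM in cells with neither, 161 with Il5 alone, 228 with Il13 alone and 203 with both.

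Slfn5-positive cells differed from negative cells in the opposite sense for Cd44. Cd44 had 440 CPM in Slfn5-positive and 481 CPM in Slfn5-negative WT cells (-0.19, -0.37 to -0.02) and 221 and 297 CPM in Pac1-KO (-0.50, -0.72 to -0.28). Ly6a had 123 and 97.0 CPM in WT (0.27, -0.07 to 0.61) and 287 and 230 CPM in Pac1-KO (0.25, 0.05 to 0.45). Over the 20 further thinnings Ly6a was above 0 and Cd44 below 0 in all 20 in both libraries, with Ly6a means of 0.32 and 0.34 and Cd44 means of -0.27 and -0.32. Without thinning, where deeper cells are more often called positive, the Ly6a ratios were 0.00 and 0.05 and those of Cd44 -0.09 and -0.11. When positive cells needed 2 UMIs, Cd44 had a ratio of 0.00 in WT and -0.60 in Pac1-KO. The ratios of Thy1 (0.25 in both libraries), Klrg1 (0.12 and -0.06) and Ptprc (-0.10 and 0.04) had intervals that held 0. Ly6e had 0.05 (-0.06 to 0.16) in WT and 0.14 (0.05 to 0.23) in Pac1-KO, with means over the 20 further thinnings of 0.07 (above 0 in 19 of 20) and 0.12 (20 of 20), but -0.03 in both libraries without thinning. For Thy1 in WT the further thinnings gave a mean of 0.22 and were above 0 in all 20. For Thy1 in Pac1-KO the 20 further thinnings gave a mean of 0.09 (-0.09 to 0.23), below the value of the first thinning, and thinning to 1000 or 3000 UMIs turned its sign (-0.16 and -0.09). No member was past the fold in either library, where 5.36% of 3728 genes in WT and 5.43% of 4729 genes in Pac1-KO were. Seen from Ly6a, Slfn5 had 58.0 CPM in Ly6a-positive and 39.6 CPM in Ly6a-negative WT cells (0.52, 0.16 to 0.86) and 73.3 and 57.9 CPM in Pac1-KO (0.27, 0.02 to 0.52). The 20 further thinnings gave means of 0.40 in WT (-0.0006 to 0.81, above 0 in 19 of 20) and 0.37 in Pac1-KO (0.16 to 0.54).

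**Figure D4:**
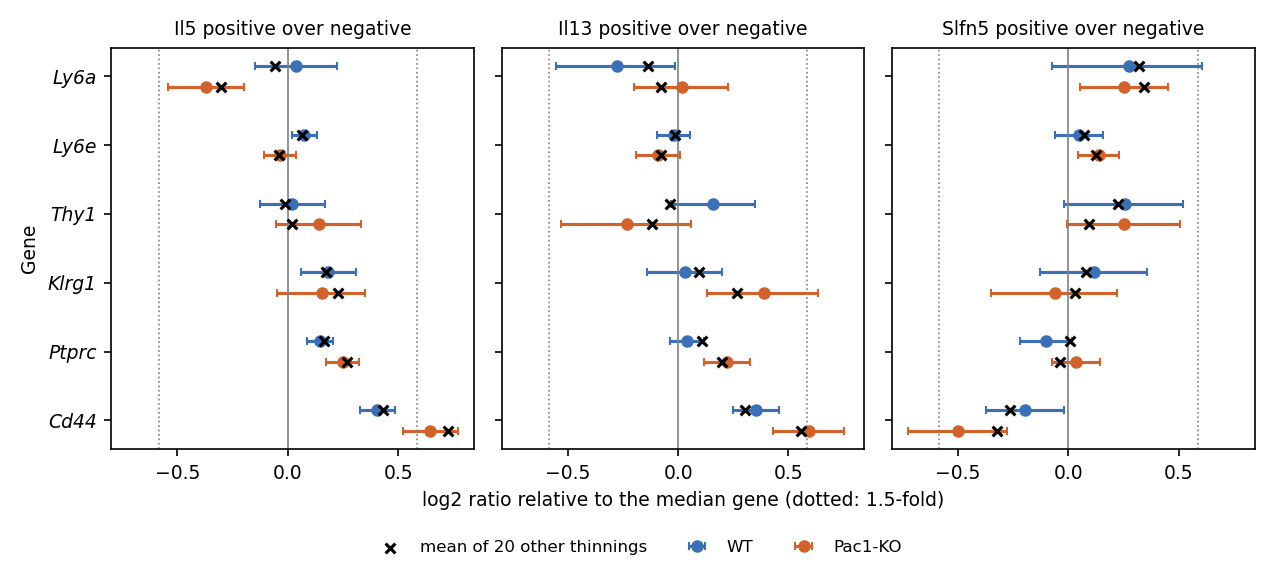
Log2 ratio of cells with over cells without Il5, Il13 or Slfn5, relative to the median gene, for each of the 6 genes in WT (blue) and Pac1-KO (orange); points with bars are the values and 95% counting intervals from 1 thinning, crosses are means of 20 further thinnings, and dotted lines mark 1.5-fold. Cd44 lies right of 0 for Il5 and Il13 and left of 0 for Slfn5 in both libraries.

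The genotype difference in Ly6a was found in each of these classes. Among Il5-positive cells Ly6a had 92.4 CPM in WT and 170 CPM in Pac1-KO (0.78, relative to the median gene), and among Il5-negative cells 101 and 250 CPM (1.15). The ratio was 1.40 in Il13-positive and 1.04 in Il13-negative cells, and 1.14 in Slfn5-positive and 1.07 in Slfn5-negative cells. All 6 ratios come from 1 thinning, which had 78.5 and 217 CPM of Ly6a in Il13-positive cells. Over the 20 further thinnings these cells averaged 90.6 CPM in WT and 200 CPM in Pac1-KO, so the value of 1.40 depends on the draw. Klrg1 lay below 0 in all 6 classes, from -0.40 in Il13-positive to -0.86 in Slfn5-positive cells, as did Cd44 (-0.60 to -1.08).

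**Figure D5:**
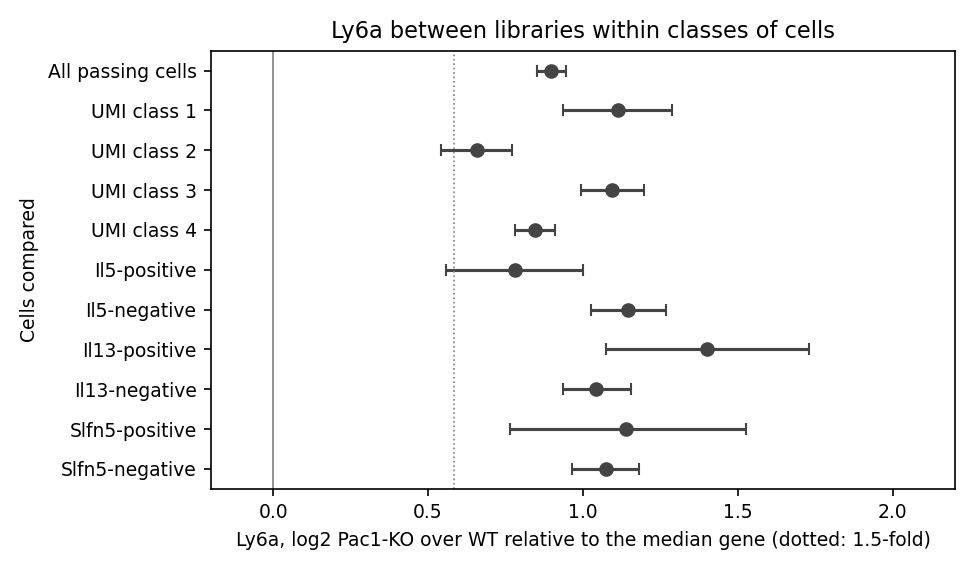
Log2 ratio of Ly6a in Pac1-KO over WT, relative to the median gene, in all kept cells, in 4 classes of cells by UMIs (class 1 the shallowest) and in cells of 1 thinning by Il5, Il13 and Slfn5 status; bars are 95% counting intervals and the dotted line marks 1.5-fold. All points lie right of 0, from 0.66 to 1.40.

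Few genes differed much by Ly6a status in both libraries, but that status rested mostly on 1 UMI, which draws ratios towards 0. Compared were 3388 genes with at least 50 expected UMIs in the smaller class, ranked by the lower of both libraries' ratios, and they were looked at because of their values. Among those that led in Ly6a-positive cells were Mlec, a lectin of the endoplasmic reticulum (0.54 in WT and 0.47 in Pac1-KO), and Tmem154, Ptprcap, which binds CD45, and Grpel1, with 0.36 to 0.39.

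Among genes lower in Ly6a-positive cells, Scgb1a1, the secretoglobin of airway club cells, had 14.5 CPM against 88.9 in WT and 19.7 against 63.4 in Pac1-KO. This rested on few cells, since 10 cells held 80.3% of the thinned Scgb1a1 UMIs in WT and 54.8% in Pac1-KO, and 1 and 0 of those 10 had a Ly6a UMI. Next were Trib1, a pseudokinase (-0.94 and -0.78), Fam71a, Dyrk3 and Mir155hg, the host gene of miR-155 (-0.52 and -0.82). Past the fold by Ly6a status were 2.65% of 6041 genes in WT and 3.06% of 8060 in Pac1-KO, with 0 of the other 5 members in either library.

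No gene reached a correlation of 0.2 with any of the 6 members across thinned cells in both libraries. Low counts at this depth hold correlations down, so the lack of partners is not read as a result. Between members the ratios were small. Apart from Cd44 and Ly6e by Ly6a status, given above, Ly6a in Cd44-positive cells had a ratio of -0.33 (-0.51 to -0.16) in WT and -0.17 (-0.30 to -0.04) in Pac1-KO. In Ly6e-positive cells Ly6a had 0.01 (-0.20 to 0.21) and 0.34 (0.19 to 0.50). Klrg1 in Ly6a-positive cells had 0.20 (0.03 to 0.37) in both libraries, but over the 20 further thinnings it averaged 0.02 (-0.07 to 0.20) in WT and 0.10 (-0.03 to 0.25) in Pac1-KO, so no direction is read from it. Klrg1 in Cd44-positive cells had a ratio of 0.01 (-0.10 to 0.13) in WT and 0.13 (-0.03 to 0.30) in Pac1-KO. In Thy1-positive cells its ratio was -0.20 (-0.36 to -0.05) in WT and -0.10 (-0.30 to 0.10) in Pac1-KO.

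The lists around the members give their setting. Of 33 tested interferon response genes, 4 were past the fold higher in Pac1-KO (Ifi27l2a, Rtp4, Ifit2 and Bst2) and 1 lower (Gbp3), where 8.20% of all tested genes were higher and 12.8% lower. In this list 26 genes lay above the median gene, with a list median of 0.28, and in the list of GPI anchor genes described next 20 of 26 did. Ifi27l2a had 1.21 CPM in WT and 14.9 CPM in Pac1-KO, whereas Isg15 (-0.08) was close to the median gene. By Ly6a status, 15 of 17 tested interferon genes lay above the median gene in WT (list median 0.14). In Pac1-KO 24 of 26 did (0.22). Past the fold were 0 in WT, where 2.65% of all tested genes were, and 2 in Pac1-KO (Irf9 and Ifi27l2a), where 3.06% were.

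Of 26 tested genes of GPI anchor synthesis, on which surface Sca-1 and Thy1 depend, 2 were past the fold higher in Pac1-KO (Pigh 0.87 and Pigp 0.59) and 1 lower (Dpm3 -1.28), against the same 8.20% and 12.8% of all genes, with a list median of 0.16. By Ly6a status 2 of 6 tested genes lay above the median gene in WT (list median -0.07) and 11 of 20 in Pac1-KO (0.00).

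Of 14 tested gate and ILC2 surface genes, Ly6a alone was past the fold higher, and Klrg1, Cd44, Il2ra and Kit were lower, with a list median of -0.32, again against 8.20% and 12.8% of all genes. Without the members 0 of 9 were higher and 2 lower. Kit, the stem cell factor receptor, had 428 CPM in WT and 209 CPM in Pac1-KO (-1.22), and Il2ra, the CD25 gene, 572 and 405 CPM (-0.68). Il7r had 812 and 1081 CPM (0.23). Ptgdr2, the gene of the ILC2 receptor CRTH2, had 1 and 2 UMIs in all.

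Of 12 listed genes of the lineage antibodies, 10 had fewer than 50 UMIs over both libraries, Cd8a having none, and 2 had at least 50, Cd3e with 573 and 343 UMIs (10.5 and 5.88 CPM, -1.02) and Epcam with 882 and 1217 UMIs (0.18).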

How the data were processed

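Lung ILC2s of 1 WT and 1 Pac1-KO pool were profiled by droplet sequencing at the 3′ end. The files hold UMI counts, not normalised, that the authors made with Cell Ranger (version 6.1.1 in the processing notes and methods, 4.0.0 in the file header) on the mm10 genome. The annotation release is not given in the sources used here, and replicates were not made. Reads fitting several genes can be lost in such counting.

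From these counts, barcodes with at least 500 genes and at most 10% mitochondrial UMIs were kept and UMIs were summed per library. Cells were not clustered, and no doublet caller was run. Cells over 2 times their library's median UMIs, 1801 in WT and 1375 in Pac1-KO, can include doublets and were left out as an alternative. CPM was given with exact Poisson intervals, shares with Clopper-Pearson intervals, and ratios with exact conditional binomial intervals, at 95% and covering counting error only. Genotypes were compared over genes with at least 50 UMIs, and status classes over genes with at least 20 expected UMIs in the smaller class, after thinning each cell to 1500 UMIs. The median gene set the zero of each comparison. No test was made, since cells are not replicates. The 6 genes and the gene lists were chosen with earlier results of these data known. All 6 members are named, 1 further listed gene is not reported here, and the text names from the lists the detected Ly6 genes and up to 4 other genes with the largest ratios. A gene most like a member needed a correlation of 0.2 in both libraries. Genes leading by Ly6a status, Bst2 and genes given as background were chosen after their values were seen. The calculations were checked on simulated counts. Alternatives changed the barcode filter, cell types kept, summing, thinning, scaling, low-count filter and status limit. A mean over 20 further thinnings was added after seeing the data, and these draws share cells and molecules. Python 3.11.15 was used with numpy 2.4.6, scipy 1.17.1, pandas 2.3.3, matplotlib 3.10.9 and biopython 1.88, and coding sequences were aligned end to end.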

Additional observations from a re-analysis of the deposited data

How the results depend on the processing

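Ly6a was higher in Pac1-KO under all 20 alternatives tried for its relative log2 ratio, which ranged from 0.66 to 1.40 around 0.90. It was 0.98 without cells over 2 times the median UMIs, 0.97 as the mean of per-cell CPM, 1.08 in thinned cells and 1.09 as counted. Within 4 classes of cells by UMIs it was 1.11, 0.66, 1.10 and 0.84. Within Il5-positive and Il5-negative cells it was 0.78 and 1.15, by Il13 1.40 and 1.04, and by Slfn5 1.14 and 1.07, all from 1 thinning. The count of members past the fold by genotype was 3 in 9 alternatives and 2 as counted.

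By Il13 status the count in Pac1-KO was 0 when cells were thinned to 1000 UMIs, without thinning, with another seed and as the mean of 20 thinnings, against 1, so the Cd44 call there is not stable. It was 2 (Klrg1 and Cd44) when positive cells needed 2 UMIs. That limit gave a count of 1 in WT (Ly6a, lower), and by Slfn5 status a count of 1 in WT (Ly6a, higher) and of 1 in Pac1-KO (Cd44, lower), against 0 in each. By Il5 status the counts were 0 in WT and 1 in Pac1-KO (Cd44) under each of these alternatives. Of 288 status ratios of single genes under alternatives, 51 had another sign and 52 left their counting interval.

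No paired analysis was possible because there is 1 library per genotype, and for the same reason no library was left out. Depth limits the status classes, since in thinned cells Ly6a, Thy1 and Slfn5 were seen in 5.62% to 26.3% of cells and mostly as 1 UMI.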
